A study of Homo sapiens with 6 samples.

Results

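The laminin chains, basement membrane proteoglycans and anthrax receptors of H460 lung cancer cells were compared between a subpopulation of high invasiveness (H-INV) and one of low invasiveness (L-INV). The set holds 9 genes. ANTXR2 was selected on the loss of its array signal in H-INV cells, and LAMA3, LAMA5, LAMB1, LAMB3, LAMC1, HSPG2, AGRN and ANTXR1 were chosen as basement membrane parts. Of the 9 genes, 8 had a probe in the annotation used here, with 15 probes in all, while LAMA3 had none and is not analysed here. The detection filter, a detection p under 0.01 on at least 3 arrays, kept 7 of the 9 genes and 11 of the 15 probes, among 10279 genes and 16941 probes kept in all, and HSPG2 did not pass it. Differences of ANTXR2 are therefore given as a description without a test, and the other 6 genes were read from the fit across all 10279 genes.

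The H460 line is a long-established culture derived from a human large cell lung cancer. Per the labels, cells were placed on porous inserts coated with a basement membrane extract, and after 48 hours those that had crossed to the vessel below were collected as H-INV and those left on top as L-INV. This was repeated for 6 rounds, each population being reselected for its own behaviour and grown between rounds in medium without glucose, so neither group is the unselected line. RNA from 3 sets of cells per group was hybridised to Illumina HT-12 v4 arrays, 1 array per set. The methods do not state whether the sets were selected separately, so the p-values reflect only how these sets varied, and that variation may be technical. All 6 arrays lay on 1 BeadChip, L-INV in the first positions and H-INV in the last, so position and group cannot be told apart.

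Basement membranes are thin sheets of matrix beneath epithelia. Laminins, trimers of an alpha, a beta and a gamma chain, form a polymer at the cell surface, collagen IV forms a second network, and nidogens and the heparan sulphate proteoglycans perlecan and agrin link these networks to each other and to cells. ANTXR1 and ANTXR2, also known as TEM8 and CMG2, are membrane proteins with an integrin-like von Willebrand factor A domain that bind matrix proteins such as collagens, and they were named as the receptors of the anthrax toxin's protective antigen. Extracts used to coat invasion inserts are themselves rich in laminin and collagen IV, as protein. The arrays measured the RNA of the cells.

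Median scanner intensities were 123 to 134 on the 6 arrays, and 16368 to 16985 probes per array were above background. Arrays of 1 group correlated at 0.995 to 0.996 across genes and arrays of different groups at 0.920 to 0.927, with genes not being independent replicates. Endothelial markers (3 of 3) were above background on no array, and so were the fibroblast markers COL1A2, DCN and LUM and the leukocyte markers CD3E and PTPRC. The remaining fibroblast markers were detected on some arrays, COL1A1 on 2 H-INV and PDGFRB on 2 L-INV arrays. CD14, listed as a leukocyte marker, was above background on all arrays and fell in H-INV cells (log2 fold change -1.51). Of 5 epithelial markers, 4 were above background on all 6 arrays. Their summed mean intensity was 7960 in L-INV and 2140 in H-INV cells, but the markers went both ways. KRT19 and KRT8 fell (log2 fold changes -4.12 and -0.30) and EPCAM was at least 1.90-fold lower, KRT7 rose (1.09), and KRT18 did not pass (-0.27, adjusted p 0.0624). The part of these shifts in the results below was not tested. Fewer cells expressing a gene and less RNA per cell cannot be told apart in these bulk samples.

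Among the 6 members tested, 4 were lower in H-INV cells, 1 was higher and 1 did not pass the test (limma, Benjamini-Hochberg adjusted p under 0.05 over all genes). Across all genes 25.4% were lower and 32.6% were higher at this threshold. LAMB1 and LAMC1, the beta1 and gamma1 chains, were also lower by more than 2-fold, where 6.02% of all genes were, and no member was higher by more than 2-fold, where 4.22% of all genes were. The median log2 fold change of the 6 members was -0.49, beside 0.05 over all genes. The share of all genes whose groups do not overlap was not counted, so lack of overlap is given below as description only.

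**Figure D1:**
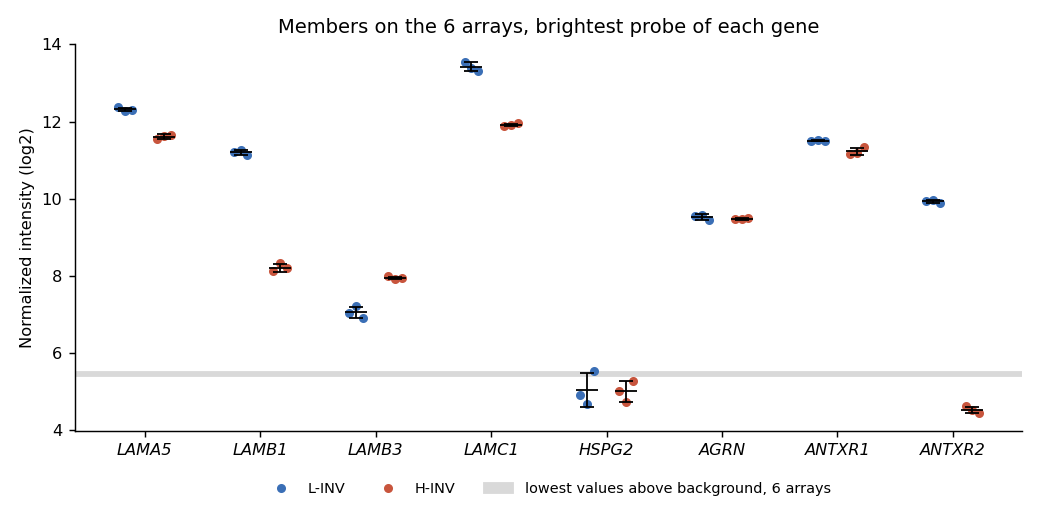
Normalized log2 intensity (vertical axis) of the brightest probe of each of 8 genes on the 3 L-INV (blue) and 3 H-INV (red) arrays, with mean and SD, and a grey band at the lowest values above background on the 6 arrays. The groups overlap for HSPG2 and AGRN, LAMB3 is the one gene higher in H-INV cells, and ANTXR2, chosen for its loss, lies below the band on all H-INV arrays. How often the groups are separate among all genes was not counted. Heights of different genes are not comparable, since their probes differ.

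LAMB1 encodes the beta1 chain, which is shared by many laminins of developing and adult tissues. Its brightest probe read 11.20, 11.25 and 11.14 in L-INV cells and 8.11, 8.32 and 8.19 in H-INV cells (normalized log2 intensity). The lowest L-INV value lay far above the highest H-INV value. The log2 fold change of H-INV over L-INV was -2.99 (SE 0.08, 95% interval -3.17 to -2.82, limma adjusted p 1.19e-08), a 7.95-fold lower level. A second probe, at 8.99, 9.05 and 9.01 in L-INV and 6.13, 6.60 and 6.52 in H-INV cells, gave -2.60 (SE 0.12, adjusted p 9.85e-07). Both probes were above background on all 6 arrays and both separated the groups.

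LAMC1 encodes the gamma1 chain, the partner of beta1 and of beta2 in most laminins. It read 13.56, 13.40 and 13.31 in L-INV and 11.89, 11.90 and 11.95 in H-INV cells. All L-INV arrays were higher than all H-INV arrays, by a mean difference larger than the SD within either group (0.124 and 0.0329). LAMC1 had a log2 fold change of -1.51 (SE 0.08, 95% interval -1.69 to -1.33, adjusted p 9.10e-07), 2.85-fold lower in H-INV cells.

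LAMA5 encodes the alpha5 chain of the widespread epithelial laminins. Its probe read 12.37, 12.27 and 12.30 in L-INV against 11.55, 11.63 and 11.65 in H-INV cells, with no overlap. The log2 fold change was -0.70 (SE 0.07, 95% interval -0.86 to -0.55, adjusted p 3.68e-05), 1.63-fold lower and under the 2-fold threshold. The alpha5, beta1 and gamma1 chains, which form one trimer, were thus all lower in H-INV cells, with intervals that did not overlap each other.

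LAMB3 encodes the beta3 chain, which is part of the laminin that anchors epithelia through hemidesmosomes. Its brightest probe read 7.04, 7.20 and 6.90 in L-INV and 7.98, 7.91 and 7.93 in H-INV cells, the opposite order to the other laminin chains of the set. The log2 fold change was 0.90 (SE 0.09, 95% interval 0.70 to 1.09, adjusted p 3.76e-05), 1.86-fold higher in H-INV cells. The other 2 LAMB3 probes were above background on no array, so the rise rests on 1 probe. Without background correction its log2 fold change was 0.57. LAMA3, the partner chain listed with it, gave no value here.

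The bases just upstream of the transcription starts are shown for the beta and gamma chain genes of the set, 1 of which rose, so that promoters of genes moving in opposite directions can be read side by side. Each is the 250 bases before the outermost RefSeq start in GRCh38.p14, written 5′ to 3′ on the strand of the gene, with capitals marking GC boxes (GGGCGG, or CCGCCC on the other strand, overlapping matches included) and the E-box CAGGTG (or CACCTG).
LAMB1: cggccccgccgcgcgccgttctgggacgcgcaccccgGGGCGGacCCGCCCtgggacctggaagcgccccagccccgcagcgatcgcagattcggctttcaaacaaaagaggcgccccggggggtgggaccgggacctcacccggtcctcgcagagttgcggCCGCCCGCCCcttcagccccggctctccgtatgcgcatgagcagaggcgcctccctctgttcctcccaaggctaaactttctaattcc
LAMC1: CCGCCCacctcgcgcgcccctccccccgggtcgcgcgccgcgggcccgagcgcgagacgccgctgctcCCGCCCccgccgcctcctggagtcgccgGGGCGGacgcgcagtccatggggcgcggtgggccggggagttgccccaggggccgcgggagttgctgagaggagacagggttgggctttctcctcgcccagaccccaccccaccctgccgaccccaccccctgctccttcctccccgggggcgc
LAMB3: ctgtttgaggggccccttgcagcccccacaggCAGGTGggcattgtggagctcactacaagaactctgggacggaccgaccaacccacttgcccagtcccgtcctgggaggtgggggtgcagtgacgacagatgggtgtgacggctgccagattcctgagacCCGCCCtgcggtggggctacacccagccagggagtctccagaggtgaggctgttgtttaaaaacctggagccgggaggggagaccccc
These windows lie at chr7:108003162-108003411 on the minus strand (LAMB1), chr1:183023170-183023419 on the plus strand (LAMC1) and chr1:209652426-209652675 on the minus strand (LAMB3). The LAMB1 and LAMC1 windows held 28 and 32 CpG dinucleotides and 4 and 3 GC boxes. The LAMB3 window, the outermost of 3 listed starts, held 8 CpG dinucleotides, 1 GC box and 1 CAGGTG. The windows of the other LAMB3 starts held 10 and 3 CpG dinucleotides, each with 1 GC box and no CAGGTG. The latter also held 1 AP-1 site (TGANTCA). The median over 35116 windows of all promoters was 11 CpG dinucleotides. LAMA5, whose fall was smaller, had 32 CpG dinucleotides, 5 GC boxes and 1 CAGGTG in its window. GC boxes were found in 42.6% of all windows and CAGGTG in 17.5%, and a match describes the letters only.

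Other laminin chains changed in both directions. Of 7 further chains, 6 had a probe and 3 passed the detection filter. Of these, 2 rose and 1 fell, where 32.6% of all genes rose and 25.4% fell, and their median log2 fold change was 0.97. LAMA1, the alpha1 chain of the early embryonic laminin, read 11.59, 11.52 and 11.64 in L-INV and 6.85, 7.10 and 7.16 in H-INV cells. Its log2 fold change of -4.55 (SE 0.09, adjusted p 3.79e-09) was greater in size than that of any member tested. A second LAMA1 probe was detected on every L-INV array but on none of the H-INV arrays. LAMB2, the beta2 chain of vascular, muscle and kidney laminins, rose from 7.25, 7.26 and 7.53 to 8.38, 8.35 and 8.20 (log2 fold change 0.97, SE 0.10, adjusted p 4.41e-05). LAMC3, the gamma3 chain, rose from 7.64, 7.70 and 7.66 to 8.67, 8.87 and 8.61 (log2 fold change 1.05, SE 0.08, adjusted p 1.04e-05). Thus LAMA1, LAMA5, LAMB1 and LAMC1 fell, while LAMB2, LAMB3 and LAMC3 rose. LAMA2, LAMA4 and LAMB4 were above background on no array.

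HSPG2 encodes perlecan, the large heparan sulphate proteoglycan of basement membranes. Its 1 probe read 4.89, 4.67 and 5.52 in L-INV and 5.01, 4.71 and 5.26 in H-INV cells, and the groups overlapped. Detection reached the threshold on 1 L-INV array and no H-INV array, so no difference was testable at this signal.

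AGRN encodes agrin, the proteoglycan that organises the nerve-muscle synapse and binds laminin and dystroglycan. It read 9.55, 9.57 and 9.43 in L-INV and 9.46, 9.46 and 9.49 in H-INV cells, and the ranges overlapped. The log2 fold change was -0.05 (SE 0.07, 95% interval -0.21 to 0.10, adjusted p 0.540), so a change of the size seen for LAMA5 or LAMB3 lay outside the interval. A second AGRN probe was not above background on any array. The AGRN probe was thus well measured but passed no threshold, unlike 5 of the 6 members tested.

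ANTXR1 (TEM8), first known as a marker of tumour endothelium, was covered by 4 probes, all above background on all 6 arrays. The brightest read 11.50, 11.52 and 11.48 in L-INV and 11.15, 11.19 and 11.33 in H-INV cells, a log2 fold change of -0.28 (SE 0.07, 95% interval -0.44 to -0.11, adjusted p 0.00956). The groups did not overlap, but the change was 1.21-fold. The probe with the largest change read 8.78, 8.94 and 8.87 in L-INV and 7.83, 8.25 and 8.14 in H-INV cells, a log2 fold change of -0.79 (SE 0.11, adjusted p 0.000577). The remaining probes gave -0.53 (SE 0.08, adjusted p 0.000785) and -0.29 (SE 0.08, adjusted p 0.0144). All 4 probes were lower in H-INV cells, beside 23.8% of all probes that were lower. They cover the same RNA samples and are not separate replicates.

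**Figure D2:**
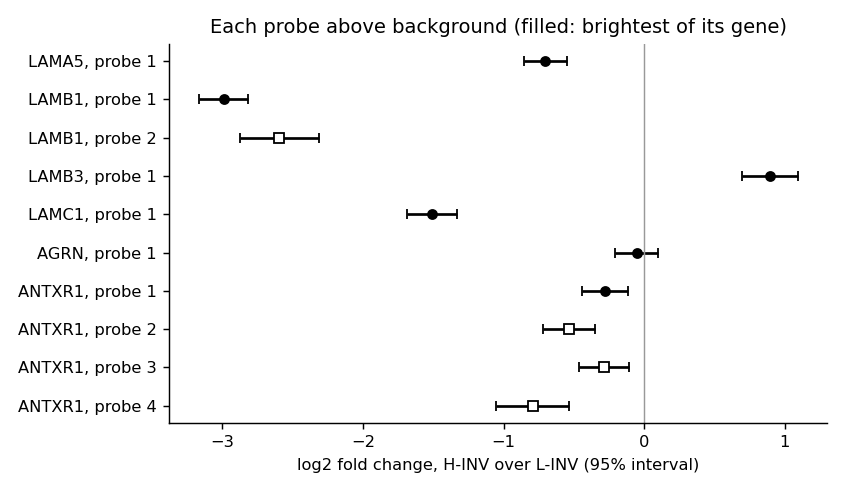
Log2 fold change of H-INV over L-INV (horizontal axis) with its 95% interval for each of the 10 tested probes of the members other than ANTXR2, filled where the probe is the brightest of its gene. The LAMB1 probes lie at -2.99 and -2.60, the 4 ANTXR1 probes between -0.79 and -0.28, LAMB3 at 0.90, and only the AGRN interval crosses 0.

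ANTXR2 (CMG2) is the anthrax receptor that binds laminin and collagen IV, and its inherited loss in humans causes hyaline fibromatosis syndrome. The gene was chosen for its loss in H-INV cells, so what follows is a description of the values that chose it. Its 1 probe read 9.93, 9.97 and 9.89 in L-INV and 4.60, 4.50 and 4.44 in H-INV cells (normalized log2 intensity). Before any correction the scanner intensities were 1228.2, 1121.9 and 986.4 against 117.5, 114.7 and 112.6. The H-INV values were at the level of the negative controls, with detection p-values of 0.2935, 0.5013 and 0.6636. The measured difference of means was -5.41 on the log2 scale, with the H-INV side at background. No H-INV array was above background, so in the main processing ANTXR2 was at least 22.3-fold lower there. This bound sets the L-INV mean against the lowest signal above background on each H-INV array. Leaving the background uncorrected gave a difference of -3.21, a smaller change than that bound. The closely related ANTXR1, by its brightest probe, kept a level well above background in both groups.

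The promoter of ANTXR2 is shown because its signal was well above background in one group and not above it in the other. The window is the 250 bases before the outermost of 2 RefSeq starts, at chr4:80073473-80073722 on the minus strand of GRCh38.p14, in the same format, and it holds no capitals because none of the motifs searched was found.
ANTXR2: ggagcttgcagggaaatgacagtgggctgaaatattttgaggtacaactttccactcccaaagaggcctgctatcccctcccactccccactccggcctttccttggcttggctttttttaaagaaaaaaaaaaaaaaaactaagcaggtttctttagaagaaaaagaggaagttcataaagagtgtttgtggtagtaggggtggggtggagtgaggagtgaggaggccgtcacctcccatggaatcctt
It held 2 CpG dinucleotides and had a GC content of 46.4%, compared with 70.4% for LAMB1 and 79.6% for LAMC1. The window of the other start held 8 CpG dinucleotides and 1 GC box. Also searched on both strands were AP-1 sites (TGANTCA, in 6.6% of all windows) and TATA boxes (TATAAA, in 10.7%). ANTXR1 had 16 CpG dinucleotides in its window, 1 GC box and 1 TATA box.

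The genes whose profile over the 6 arrays was nearest to that of ANTXR2 were RSPO3, JUP and CPED1, with root mean square distances of 0.0896, 0.0983 and 0.103 between centred log2 values. RSPO3, a secreted amplifier of Wnt signalling, went from a mean of 9.97 to 4.39 and CPED1 from 10.15 to 4.55, both above background on no H-INV array. JUP, the plakoglobin of desmosomes and adherens junctions, went from 11.04 to 5.68 by its brightest probe and remained above background on the 3 H-INV arrays. By this measure any gene with a drop of like size and little spread within the groups lies near. The other 2 JUP probes, and 1 of the other 2 CPED1 probes, were likewise above background on all L-INV arrays and none of the H-INV arrays, so they give no size of change, and the last CPED1 probe was above background on no array.

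Genes lying next to ANTXR2 and LAMB1 were read in the same fit, as the 5 nearest tested genes on each side. Around ANTXR2 on chromosome 4, of 10 genes 4 were higher, 4 were lower and 2 did not pass the test. Over all genes, 32.6% were higher and 25.4% were lower. PRDM8, the next tested gene on one side and a histone methyltransferase family member, went from a mean of 9.59 in L-INV cells to 4.75 in H-INV cells, where it was above background on no array. PAQR3, the next on the other side, had a log2 fold change of -0.39 (SE 0.09, adjusted p 0.00471). FRAS1, the fourth tested gene on that side, rose from background on all L-INV arrays. Strong changes in both directions thus lay within this stretch.

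Around LAMB1 on chromosome 7, 9 of 10 neighbours were lower, none was higher and CBLL1 did not pass the test (log2 fold change -0.14), where 25.4% of all genes were lower. The changes ran from -2.95 to -0.14. NRCAM, a neuronal adhesion molecule and the next tested gene on one side, fell from 10.16 to 7.22 (log2 fold change -2.95, SE 0.12, adjusted p 2.51e-07), close to the value of LAMB1 itself, and DLD on the other side had -0.38 (SE 0.09, adjusted p 0.00563). Neighbouring genes are not independent of each other, and what they share was not tested.

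**Figure D3:**
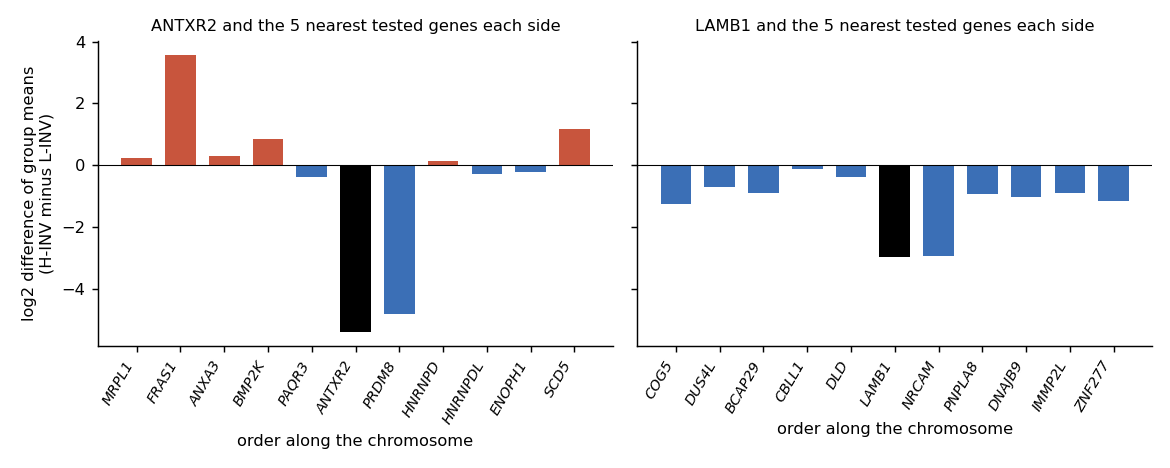
Log2 difference of group means, H-INV minus L-INV (vertical axis), for ANTXR2 and LAMB1 (black) and for the 5 nearest tested genes on each side in chromosome order, red above and blue below 0. PRDM8 at -4.84 stands beside ANTXR2 at -5.41 and FRAS1 at 3.56 a few genes away, whereas all 10 neighbours of LAMB1 lie below 0 and NRCAM at -2.95 beside LAMB1 at -2.99. ANTXR2, PRDM8, FRAS1 and BMP2K had one group at background, so their bars are measured differences and not sizes of change.

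Basement membrane components other than laminins were split. Of 25 listed, 24 had a probe and 14 were tested. Among them 7 rose, 6 fell and 1 did not pass, where 32.6% of all genes rose and 25.4% fell. Their median log2 fold change was 0.05. SMOC1, a calcium-binding matrix protein, had a log2 fold change of -1.91 (SE 0.09, adjusted p 4.77e-07). COL15A1, the chain of a collagen on the outer face of basement membranes, was at least 1.60-fold lower, being above background on no H-INV array. PXDN, the peroxidase that crosslinks collagen IV, had a log2 fold change of 1.83 (SE 0.15, adjusted p 1.72e-05), with 1 of 3 L-INV arrays above background, and 0.82 without background correction. FRAS1, a protein of the epithelial basement membrane of embryos, read 4.71, 4.77 and 5.02 in L-INV and 8.31, 8.42 and 8.46 in H-INV cells. No L-INV array was above background, and H-INV cells were higher by at least 7.62-fold. NID1, a linker of laminin and collagen IV, and the collagen IV chains COL4A3 and COL4A4 were above background on no array. Of the other collagen IV chains, COL4A1, COL4A6 and COL4A5 fell (log2 fold changes -1.41, -0.66 and -0.33) and COL4A2 did not pass (-0.40). NID2, the other nidogen, rose (0.43).

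Of 16 laminin receptors and linkers, 14 had a probe and 11 were tested. Among them 6 fell, 2 rose and 3 did not pass, where 25.4% of all genes fell and 32.6% rose. Their median was -0.25. ITGA2, the collagen and laminin binding integrin alpha2, read 10.17, 10.10 and 10.10 in L-INV and 7.29, 7.35 and 7.30 in H-INV cells. The log2 fold change was -2.81 (SE 0.06, adjusted p 6.06e-09). ITGA6, the alpha6 chain that binds laminins, had a log2 fold change of -0.94 (SE 0.08, adjusted p 1.78e-05), or -0.52 without background correction. The other ITGA6 probes were above background on no array. ITGB4, its hemidesmosome partner, was at least 1.47-fold lower, by the 1 of its 4 probes that was above background in L-INV cells. SDC4, a heparan sulphate proteoglycan of the cell surface, rose by a log2 fold change of 0.99 (SE 0.07, adjusted p 5.69e-06).

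Agrin and dystroglycan partners changed in both directions. Of 16 listed, 13 had a probe and 6 were tested. Among them 2 rose, 2 fell and 2 did not pass, where 32.6% of all genes rose and 25.4% fell. Their median was -0.03. POMGNT1 and POMT1, enzymes that glycosylate dystroglycan so that it can bind laminin, had log2 fold changes of -0.67 (SE 0.07, adjusted p 4.89e-05) and -0.40 (SE 0.11, adjusted p 0.0123). LRP4, the agrin receptor of muscle, rose by a log2 fold change of 0.49 (SE 0.12, adjusted p 0.00702), with 1 L-INV array above background. Without background correction the values were -0.26 for POMT1 and 0.17 for LRP4, and with a one-way ANOVA both lost their calls (adjusted p 0.0678 and 0.0560). POMT2, the partner of POMT1, had 0.22 (SE 0.08, adjusted p 0.0421), a call lost on leaving out any array but L-INV 3, with adjusted p-values of 0.0531 to 0.141.

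The enzymes that build heparan sulphate, the chains that perlecan and agrin carry, numbered 19 on the list. Of these, 18 had a probe and 15 were tested. Among the tested, 4 rose, 5 fell and 6 did not pass, where 32.6% of all genes rose and 25.4% fell. Their median was -0.08. XYLT1, which attaches the first xylose to a proteoglycan core, read 8.27, 8.18 and 8.12 in L-INV and 4.51, 4.59 and 4.51 in H-INV cells. By this probe it was above background on no H-INV array and at least 6.68-fold lower there. A second XYLT1 probe was above background on no array of either group. EXT1, a polymerase of the chain, had a log2 fold change of -1.27 (SE 0.10, adjusted p 1.01e-05), and GLCE, the epimerase that acts on it, had -1.14 (SE 0.08, adjusted p 4.58e-06). NDST1, which starts sulphation, rose by a log2 fold change of 0.97 (SE 0.10, adjusted p 7.59e-05), or 0.48 without background correction.

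**Figure D4:**
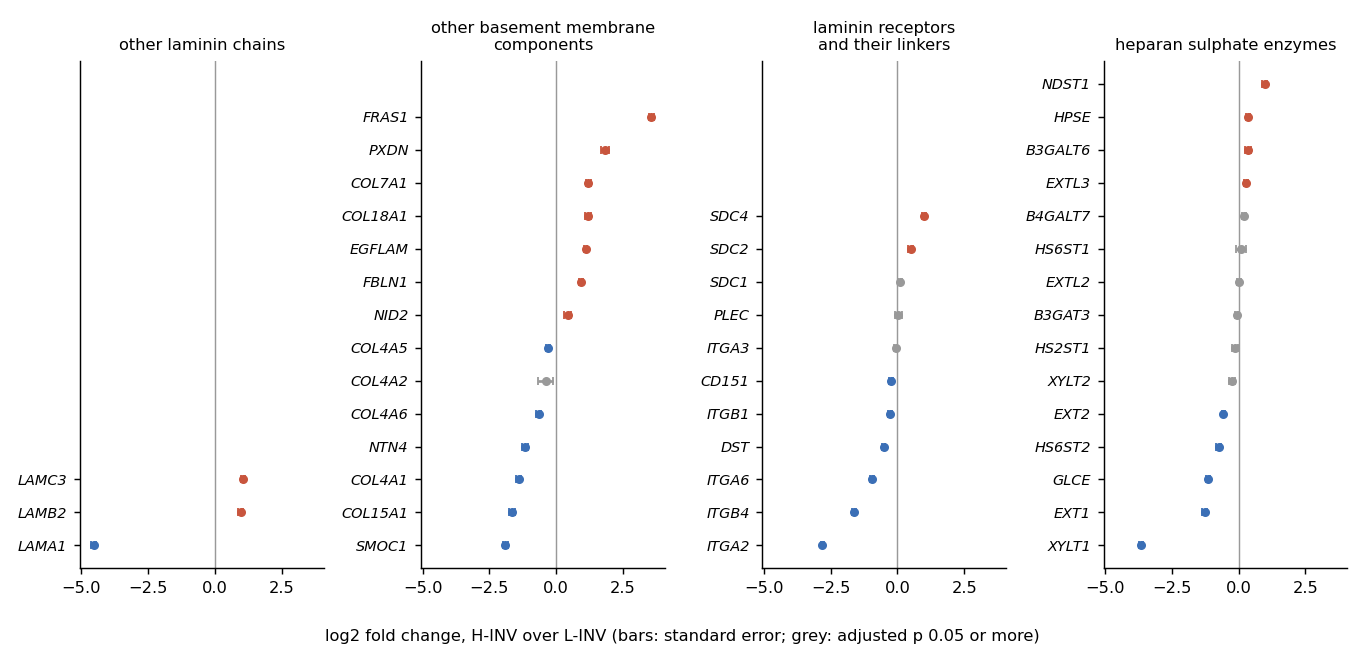
Log2 fold change of H-INV over L-INV (horizontal axis) with its standard error for every tested gene of 4 lists, red where higher, blue where lower and grey where the adjusted p was 0.05 or more. LAMA1 at -4.55, XYLT1 at -3.65 and ITGA2 at -2.81 lie farthest to the left and FRAS1 at 3.56 farthest to the right. XYLT1, FRAS1, COL15A1, ITGB4 and COL18A1 had 1 group at background, so their points are measured differences and not sizes of change.

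Ligands and partners of the anthrax receptors numbered 15, all with a probe, and 9 were tested. Among them 3 rose, 2 fell and 4 did not pass, where 32.6% of all genes rose and 25.4% fell. Their median was 0.10. COL6A1, a chain of the collagen VI that both receptors bind, had a log2 fold change of -1.24 (SE 0.08, adjusted p 3.21e-06), or -0.80 without background correction. The other collagen VI chains listed, COL6A2 and COL6A3, were above background on no array, and so was LRP6. LRP5, a Wnt co-receptor, had -0.73 (SE 0.07, adjusted p 3.17e-05). ARAP3, a GTPase-activating protein linked to toxin entry, rose by a log2 fold change of 2.97 (SE 0.10, adjusted p 5.18e-08) and by 3.02 on a second probe. ARRB1, the endocytic adaptor beta-arrestin 1, rose by a log2 fold change of 2.30 (SE 0.08, adjusted p 7.64e-08) on its brightest probe and by 1.10 and 0.65 on the others.

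Genes of toxin activation and of its intracellular targets numbered 9, with 8 having a probe and 7 tested. Among the tested, 4 rose, 2 fell and 1 did not pass, where 32.6% of all genes rose and 25.4% fell. Their median was 0.37. FURIN, the protease that cleaves the protective antigen at the cell surface, rose by a log2 fold change of 0.49 (SE 0.07, adjusted p 0.000482), or 0.30 with the background uncorrected. MAP2K1, a kinase that the toxin's lethal factor cuts, had a log2 fold change of -0.37 (SE 0.07, adjusted p 0.00136), and MAP2K6, another, rose by a log2 fold change of 1.13 (SE 0.10, adjusted p 1.96e-05), or 0.55 with the background uncorrected. CASP1, the protease of inflammasomes, had no L-INV array above background, and by its brightest probe was higher in H-INV cells by at least 6.11-fold. A second CASP1 probe showed the same pattern of detection, and the last was above background on no array.

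Of 9 proteases acting on laminins and perlecan, all with a probe, 4 were tested. Among them 2 rose and 2 fell, where 32.6% of all genes rose and 25.4% fell. Their median was -0.08. CTSB, the lysosomal cathepsin B, had a log2 fold change of -0.52 (SE 0.09, adjusted p 0.00117) and BMP1, which trims laminin chains, -0.43 (SE 0.09, adjusted p 0.00265), or -0.21 for BMP1 without background correction. PLAU, the urokinase that activates plasminogen, rose by a log2 fold change of 0.27 (SE 0.07, adjusted p 0.0137). MMP7, a secreted metalloprotease of epithelia, was higher by at least 5.26-fold on its brightest probe, for which no L-INV array was above background. A second MMP7 probe, above background on 1 L-INV array, had a log2 fold change of 2.23. MMP2, MMP9 and MMP14, which also cut laminins, were above background on no array.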

How the data were processed

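RNA of 3 L-INV and 3 H-INV sets of H460 cells was hybridised to Illumina HT-12 v4 arrays. The authors scanned the arrays and exported them with GenomeStudio, and the deposited scanner table gives linear intensity of 47322 probes without background correction or normalization. The authors also deposited detection p-values, which set every probe against its array's negative controls. Their second deposited table covers 47320 probes, with intensity background-corrected and quantile normalized. It includes values below 0 (lowest -24.0). The submitters' processing notes name GenomeStudio and Partek. The labels give 48 hours and 6 rounds of selection, whereas the methods of the study give other values.

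From the scanner table, background was corrected in R 4.3.3 with limma 3.58.1 (normexp, with the negative controls estimated from detection p-values and an offset of 16). Values were then quantile normalized and put on the log2 scale. Probes were kept where the detection p was under 0.01 for 3 or more arrays. In the platform annotation 30111 probes have 1 gene symbol, 8 several and 17203 none. The brightest probe stood for each gene. The groups were compared with a two-sided test (lmFit, eBayes) and Benjamini-Hochberg adjustment over all genes or, for further probes, over all probes. The number of arrays limits the precision, and log2 fold changes had a median standard error of 0.0824. A probe above background on no array of a group has only a bound there, given as at least so many fold. The bound holds for the main processing. Without background correction or with an offset of 50, the measured change could be smaller than it. A probe with only a bound passed the detection filter through the other group alone. Its adjusted p is therefore not given, though its gene is counted in its list. The test was tried on simulated data first.

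The members, the gene lists and the rules were chosen with earlier results of these data known. Named are the 9 listed genes, at most 4 genes per further list with the largest change among those past the adjusted p, the nearest neighbours of ANTXR2 and LAMB1, and the 3 genes nearest to ANTXR2. Genes named as above background on no array, the other collagen IV chains, NID2, COL18A1 and a few cell type markers were named after their values were seen. Promoter windows and gene order came from RefSeq tables of GRCh38.p14. Alternatives were no background correction, an offset of 50, 75th percentile scaling, the authors' table with 40 added before log2, detection required nowhere or on all 6 arrays, averaged probes per gene, the methods' one-way ANOVA, a trended prior, replicate number as a block, and leaving out each array. Figures were drawn with Python 3.11.15 and matplotlib 3.10.9.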

Additional observations from a re-analysis of the deposited data

How the results depend on the processing

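The members counted as higher (1) and lower (4) kept these counts under all 16 alternatives. Of 584 values of the 37 genes tested by name under an alternative, 575 kept their direction and their side of the threshold, 9 lost the call and 0 reversed. These 37 are the members tested and the genes named per list for the size of their change. The list genes were picked because they already passed, and some were above background in 1 group only. The count therefore does not measure how stable calls are in general. The calls lost were those of POMT2, POMT1 (one-way ANOVA, adjusted p 0.0678) and LRP4 (one-way ANOVA, adjusted p 0.0560), and POMT2 also lost its call without a detection filter (0.0935) and with the ANOVA (0.0769). Over all genes, 1053 passed both thresholds, against 467 where the background was not corrected, 691 where the offset was 50 and 639 where detection on all 6 arrays was required, a filter that leaves out ANTXR2. With the replicate number as a block (replicate block) the count was 1053 and the calls of the members were unchanged. The deviations of same-numbered arrays correlated at -0.0926 to -0.0194, so no shared effect of the replicate number was visible. This cannot show whether same-numbered sets were selected or handled together. With 1 array left out, the count ran from 1033 to 1088.

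Values near background moved most. The difference of ANTXR2 was -4.15 with an offset of 50 and -4.66 in the authors' table. Without background correction, the log2 fold change was 0.57 for LAMB3, 0.82 for PXDN, -0.61 for COL15A1, -0.61 for ITGB4, -1.75 for XYLT1, 1.78 for FRAS1, 1.55 for CASP1 and 1.28 for MMP7, and the other moves of over 1.5 times under this setting stand beside their results. With an offset of 50, COL15A1 had -0.89, ITGB4 -0.85 and LRP4 0.30. ARRB1 had 1.35 as the mean of its probes. LAMB1 ranged from -3.04 to -2.63, LAMC1 from -1.56 to -1.46 and LAMA5 from -0.73 to -0.67, each passing the test throughout. ANTXR1 ranged from -0.47 as the mean of its probes to -0.24, with adjusted p-values up to 0.0358, and AGRN from -0.10 to -0.02, with adjusted p-values of 0.271 to 0.871.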
